A study of Mus musculus with 6 samples.

Results

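The BCL2 family survival and death genes described here are 10 genes of the 23424 in the count tables, each taken as the row whose symbol equals *Bcl2*, *Bcl2l1*, *Mcl1*, *Bcl2a1a*, *Bcl2a1b*, *Bcl2a1d*, *Bax*, *Bak1*, *Bcl2l11* or *Bbc3*. All 10 members were found in every library and all 10 passed the filter on low counts. They were measured by bulk RNA-seq of tumor-associated macrophages (TAMs) from melanomas grown for 21 days in the skin of mice. The libraries are 3 of F4/80high TAMs and 3 of F4/80low TAMs, where F4/80 is a macrophage surface protein encoded by *Adgre1*. All mice were untreated wild-type C57Bl/6J females that were 8 weeks old when YUMM1.7 cells, a mouse melanoma line, were injected. Both subsets were sorted as live cells carrying CD45, CD11b and F4/80, and lineage-positive cells were left out. Each library pools tumors of several mice from one of 3 independent experiments, so a library is a pool and not an animal, and replicates of one number in both subsets form a pair. The question asked of these libraries was how the transcriptomes of the 2 subsets differ.

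The BCL2 family decides whether the outer membrane of the mitochondrion is opened during apoptosis. BAX and BAK1 are the effectors that form the pores, BCL2, BCL-XL (encoded by *Bcl2l1*), MCL1 and the A1 proteins (encoded by the *Bcl2a1* copies) hold them in check, and BH3-only proteins such as BIM (encoded by *Bcl2l11*) and PUMA (encoded by *Bbc3*) release that check. MCL1 and A1 turn over quickly and are used widely by myeloid cells, and the mouse carries several near-identical copies of the A1 gene.

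No member was called between the subsets. With the test described next, 0 of the 10 members were called, 0 reached an unadjusted p of 0.05, and the lowest adjusted p was 0.693. Of all 14645 protein-coding genes tested, 0.00% were called and 7.60% reached an unadjusted p of 0.05. The log2 fold changes of the members ran from -0.56 (*Bbc3*) to 0.55 (*Bcl2*), with 5 higher and 5 lower in F4/80high TAMs and a median of 0.0047, where the median of all genes was 0.0091. The test was edgeR's quasi-likelihood test with a term for replicate 3 against replicates 1 and 2, the batch as the study draws it in its plot of these libraries, and a gene was called at a Benjamini-Hochberg adjusted p under 0.05 over all genes and an absolute log2 fold change above 1. With the replicate number as a block, which sets each F4/80high library against its F4/80low partner, 0 members were called against 0.519% of all genes, and 0 reached an unadjusted p of 0.05 against 9.91% (lowest adjusted p of a member 0.599). In bulk samples, fewer cells that carry a transcript and less of it per cell cannot be told apart, and this holds for every value given here.

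The libraries held between 16045281 and 43604373 counts. The 2 replicate 3 libraries were the smallest and stood apart from the rest, with 16.1% and 17.1% of their counts on *Lars2*, *Gm23935* and *Gm15564* against at most 0.609% in the other libraries. *Adgre1* was higher in F4/80high TAMs in 3 of 3 pairs, by 0.17, 0.72 and 0.97 on the log2 scale, and the subsets overlapped. Its log2 fold change was 0.67 (SE 0.30), with an adjusted p of 0.664 by edgeR. Values below are CPM, the counts scaled to a common library size with TMM factors, and values of a subset are always given in the order of replicates 1, 2 and 3.

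**Figure D1:**
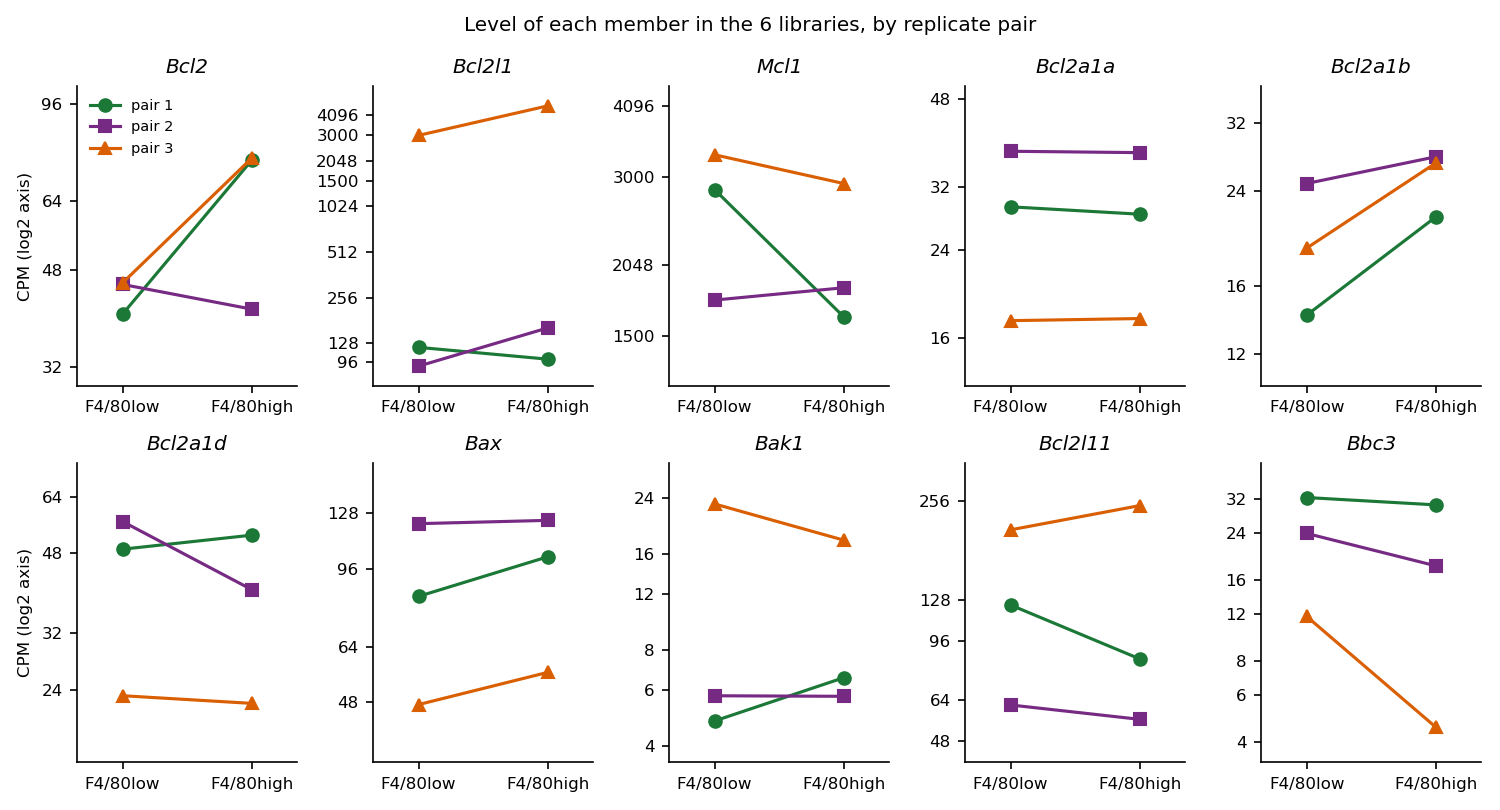
Level of each of the 10 members (CPM, log2 axis with a range of its own in each panel) in F4/80low and F4/80high TAMs, with a line joining the libraries of each of the 3 replicate pairs. In no panel do the F4/80high libraries all lie on one side of the F4/80low libraries. In every panel but *Bcl2* and *Bcl2a1b* both libraries of pair 3 lie above or below all those of pairs 1 and 2. How many of all genes do the latter was not counted.

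Among the survival genes, *Bcl2* (chr1:106538178-106714274, minus strand, GRCm38), the founding member of the family, measured 75.9, 40.7 and 76.5 CPM in the F4/80high libraries and 39.9, 45.1 and 45.4 CPM in the F4/80low ones. The F4/80low libraries lay close together, while F4/80high replicate 2 fell among them and the other two lay above. The log2 fold change was 0.55 (SE 0.28, 95% interval -0.07 to 1.18, edgeR adjusted p = 0.693), the highest signed value of the members, and the pair differences were 0.93, -0.15 and 0.75. Leaving out F4/80high replicate 1 gave 0.29, and leaving out F4/80high replicate 2 gave 0.77 with an unadjusted p of 0.0104 and an adjusted p of 0.505 by edgeR.

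T and NK cells also express *Bcl2*, and the summed level of 11 T and NK cell markers moved in the same direction as *Bcl2* in each pair. That sum was 1403, 434 and 243 CPM in the F4/80high libraries and 520.1, 635 and 115 CPM in the F4/80low ones. None of the 11 markers was at 0 in all libraries, and *Cd3e*, a subunit of the T cell receptor complex, ran from 14.6 to 163 CPM, highest in F4/80high replicate 1. The sort left out lineage-positive cells, and the study's antibodies include ones against CD3e and NK cells in the same colour, which would remove T and NK cells if they made up the gate. The summed level of 8 B and plasma cell markers moved the same way in each pair. It was 359, 162 and 54.2 CPM in the F4/80high libraries and 257, 314 and 39.3 CPM in the F4/80low ones. An antibody against B220, a B cell surface protein, is listed in the same colour and would remove B cells if it was in the gate. The part of T, NK or B cells in the *Bcl2* values was not tested.

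*Bcl2l1* (chr2:152780668-152831728, minus strand), which encodes BCL-XL, measured 101, 162 and 4700.0 CPM in the F4/80high libraries and 121, 90.7 and 3001 CPM in the F4/80low ones. Replicate 3 of both subsets lay far above all other libraries, and within replicates 1 and 2 the subsets overlapped. For BCL-XL the log2 fold change was 0.43 (SE 0.26, 95% interval -0.16 to 1.01, edgeR adjusted p = 0.714), with pair differences of -0.26, 0.84 and 0.65. It was 0.63 without F4/80high replicate 1, with an unadjusted p of 0.0333 and an adjusted p of 0.303, and 0.21 without F4/80high replicate 2.

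*Mcl1* (chr3:95658788-95663176, plus strand) had the highest CPM of the 10 members in replicates 1 and 2, at 1629, 1852 and 2917 CPM in the F4/80high libraries and 2841, 1755 and 3308 CPM in the F4/80low ones. The subsets overlapped, and only pair 1 showed a wide gap. Its log2 fold change was -0.33 (SE 0.25, 95% interval -0.88 to 0.23, edgeR adjusted p = 0.762), with pair differences of -0.80, 0.08 and -0.18. Leaving out F4/80low replicate 1 brought it to -0.08, and leaving out F4/80low replicate 2 to -0.49. Neutrophils carry much *Mcl1*, and the sum of 12 neutrophil markers was 2149, 935 and 753 CPM in the F4/80high libraries and 4912, 3139 and 1535 CPM in the F4/80low ones, lower in F4/80high in all 3 pairs, with none of the 12 at 0 in all libraries. The listed antibodies in the lineage colour also include one against Ly6G, a neutrophil surface protein, which would remove these cells if it was in the gate. Their part in the *Mcl1* and *Bcl2a1* values was not tested.

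The *Bcl2a1* copies need their sequences beside their counts, since reads that match several copies cannot be placed on one. All 3 measured copies lie on chromosome 9 of GRCm38 in the GENCODE M21 annotation, *Bcl2a1d* (chr9:88723285-88731914, minus strand), *Bcl2a1a* (chr9:88956900-88962419, plus strand) and *Bcl2a1b* (chr9:89199209-89207827, plus strand). Each has 516 coding bases. *Bcl2a1a* and *Bcl2a1b* differ at 11 of them, *Bcl2a1a* and *Bcl2a1d* at 7, and *Bcl2a1b* and *Bcl2a1d* at 6. At 12 positions the 3 copies are not all alike, and from coding base 95 to coding base 311 all 3 are identical over 217 bases. The first 120 coding bases hold 7 of the 12 positions and are shown to let the copies be told apart, 5′ to 3′ along the transcript, from the GENCODE M21 transcripts, with capitals where a copy has a base unlike both others.
Bcl2a1a (chr9:88957051-88957170, plus strand): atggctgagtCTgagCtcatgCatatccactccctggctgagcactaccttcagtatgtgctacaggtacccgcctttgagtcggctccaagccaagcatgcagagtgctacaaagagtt
Bcl2a1b (chr9:89199360-89199479, plus strand): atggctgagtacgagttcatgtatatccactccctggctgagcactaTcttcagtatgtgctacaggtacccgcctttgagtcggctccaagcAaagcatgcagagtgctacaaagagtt
Bcl2a1d (chr9:88731600-88731719, minus strand): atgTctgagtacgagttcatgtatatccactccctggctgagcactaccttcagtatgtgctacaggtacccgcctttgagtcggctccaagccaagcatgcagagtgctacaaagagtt
In this window *Bcl2a1a* has 4 bases of its own, *Bcl2a1b* 2 and *Bcl2a1d* 1.

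Over whole transcripts, 54.7% of the 100-base windows of *Bcl2a1d* occur without a mismatch in another copy, 43.5% of those of *Bcl2a1a* and 31.1% of those of *Bcl2a1b*. At 50 bases the shares were 79.5%, 69.0% and 57.6%, and at 150 bases 30.3%, 28.2% and 14.2%. The read length and the treatment of reads that match several copies are not given in the sources used here, so the split of counts among the copies is uncertain to that extent. *Bcl2a1b* also shares 401 exon bases on the same strand with *Gm29094* in that annotation.

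Summed over the 3 copies, the A1 genes measured 102, 105 and 66.9 CPM in the F4/80high libraries and 92.5, 119.0 and 59.4 CPM in the F4/80low ones. The sums overlapped, and replicate 3 was lowest in both subsets. Counted as 1 gene, they gave a log2 fold change of 0.04 (SE 0.22, 95% interval -0.45 to 0.53, edgeR adjusted p = 0.980).

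*Bcl2a1a* measured 28.3, 37.6 and 17.5 CPM in the F4/80high libraries and 29.3, 37.8 and 17.3 CPM in the F4/80low ones. The values of a pair were nearly equal each time, with differences of -0.05, -0.01 and 0.01, while the experiments differed from each other. Its log2 fold change was -0.01 (SE 0.25, 95% interval -0.59 to 0.56, edgeR adjusted p = 0.996).

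*Bcl2a1b* measured 21.5, 27.7 and 27.0 CPM in the F4/80high libraries and 14.2, 24.8 and 18.8 CPM in the F4/80low ones. It was higher in F4/80high in 3 of 3 pairs, by 0.60, 0.16 and 0.52 on the log2 scale, and the subsets overlapped because F4/80low replicate 2 lay above F4/80high replicate 1. In the fit the log2 fold change was 0.40 (SE 0.30, 95% interval -0.27 to 1.07, edgeR adjusted p = 0.759). Leaving out F4/80low replicate 1 gave 0.21, and leaving out F4/80low replicate 2 gave 0.68.

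*Bcl2a1d* measured 52.7, 39.9 and 22.4 CPM in the F4/80high libraries and 49.0, 56.4 and 23.3 CPM in the F4/80low ones, again with overlap. Its log2 fold change was -0.15 (SE 0.23, 95% interval -0.67 to 0.38, edgeR adjusted p = 0.910).

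The copies made up different shares of the A1 counts. *Bcl2a1b* took 21.0%, 26.4% and 40.4% of the counts of the 3 copies in the F4/80high libraries and 15.3%, 20.8% and 31.7% in the F4/80low ones. Its share was higher in the F4/80high library of each pair, with 95% Wilson intervals that did not overlap in any pair (36.6% to 44.3% against 27.8% to 35.8% in pair 3, where 619 and 521 counts stand behind the shares). These intervals cover counting error only, no test over libraries was made since this share was singled out after its values were seen, and the subsets overlapped. *Bcl2a1d* was the leading copy in 5 of the 6 libraries and took a smaller share in the F4/80high library in 3 of 3 pairs. *Bcl2a1c*, a further copy, held at most 4 counts in any library.

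**Figure D2:**
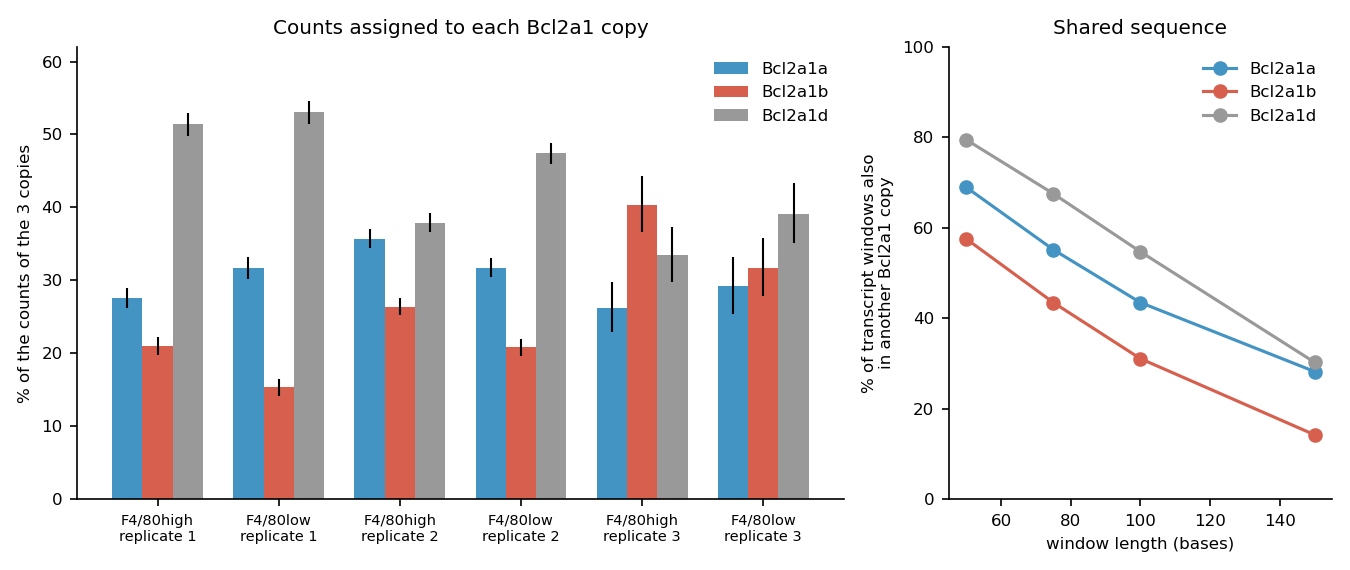
Left, the share of the counts of *Bcl2a1a*, *Bcl2a1b* and *Bcl2a1d* that each copy took in every library (%, bars with 95% Wilson intervals, counting error only). *Bcl2a1b* rises above 30% in the replicate 3 libraries alone and is higher in the F4/80high bar of each pair. Right, the share of transcript windows of 50, 75, 100 or 150 bases (%) that also occur in another *Bcl2a1* copy, which falls with length and is lowest for *Bcl2a1b*.

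Of the effectors, *Bax* (chr7:45461697-45466898, minus strand) measured 102, 123 and 56.1 CPM in the F4/80high libraries and 83.2, 121 and 47.5 CPM in the F4/80low ones. It was higher in F4/80high in 3 of 3 pairs, by 0.30, 0.03 and 0.24 on the log2 scale, gaps that are small beside those between the experiments. In the fit, *Bax* had a log2 fold change of 0.17 (SE 0.23, 95% interval -0.35 to 0.70, edgeR adjusted p = 0.888). *Bax* shares 192 exon bases on the same strand with *Gm45808*.

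*Bak1* (chr17:27019810-27029009, minus strand), the other effector, was at 6.56, 5.73 and 17.7 CPM in the F4/80high libraries and 4.79, 5.75 and 23.1 CPM in the F4/80low ones. The pairs went different ways (0.45, -0.01 and -0.38), and replicate 3 was highest in both subsets. Its log2 fold change was 0.02 (SE 0.32, 95% interval -0.70 to 0.75, edgeR adjusted p = 0.994). *Bak1* rested on 164 to 295 counts a library and overlaps *Ggnbp1* on the opposite strand over 614 exon bases, with at most 64 counts on *Ggnbp1*.

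Of the BH3-only genes, *Bcl2l11* (chr2:128126038-128162547, plus strand), which encodes BIM, measured 84.9, 55.7 and 248 CPM in the F4/80high libraries and 124, 61.6 and 209 CPM in the F4/80low ones. The pair differences were -0.54, -0.14 and 0.24 on the log2 scale, so that pair 3 went against the other two, and the subsets overlapped. The log2 fold change was -0.19 (SE 0.32, 95% interval -0.90 to 0.53, edgeR adjusted p = 0.921). Without F4/80low replicate 1 its direction turned to 0.21, and without F4/80high replicate 3 it was -0.40.

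*Bbc3* (chr7:16308393-16318205, plus strand), which encodes the p53 target PUMA, measured 30.5, 18.1 and 4.54 CPM in the F4/80high libraries and 32.5, 23.9 and 11.8 CPM in the F4/80low ones. It was lower in F4/80high in 3 of 3 pairs, by -0.09, -0.40 and -1.36, and its widest gap rests on 42 counts against 103 in pair 3. The log2 fold change was -0.56 (SE 0.35, 95% interval -1.36 to 0.24, edgeR adjusted p = 0.718). It was -0.92 without F4/80high replicate 1 (unadjusted p = 0.0276, edgeR adjusted p = 0.281) and -0.22 without F4/80low replicate 3.

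In all, 3 of the 10 members (*Bcl2a1b*, *Bax* and *Bbc3*) went one way in all 3 pairs, against 33.7% of all genes tested, and in 0 of the 10 did the subsets not overlap, against 5.20% of all genes. Both shares of the members lie close to or below those of all genes.

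**Figure D3:**
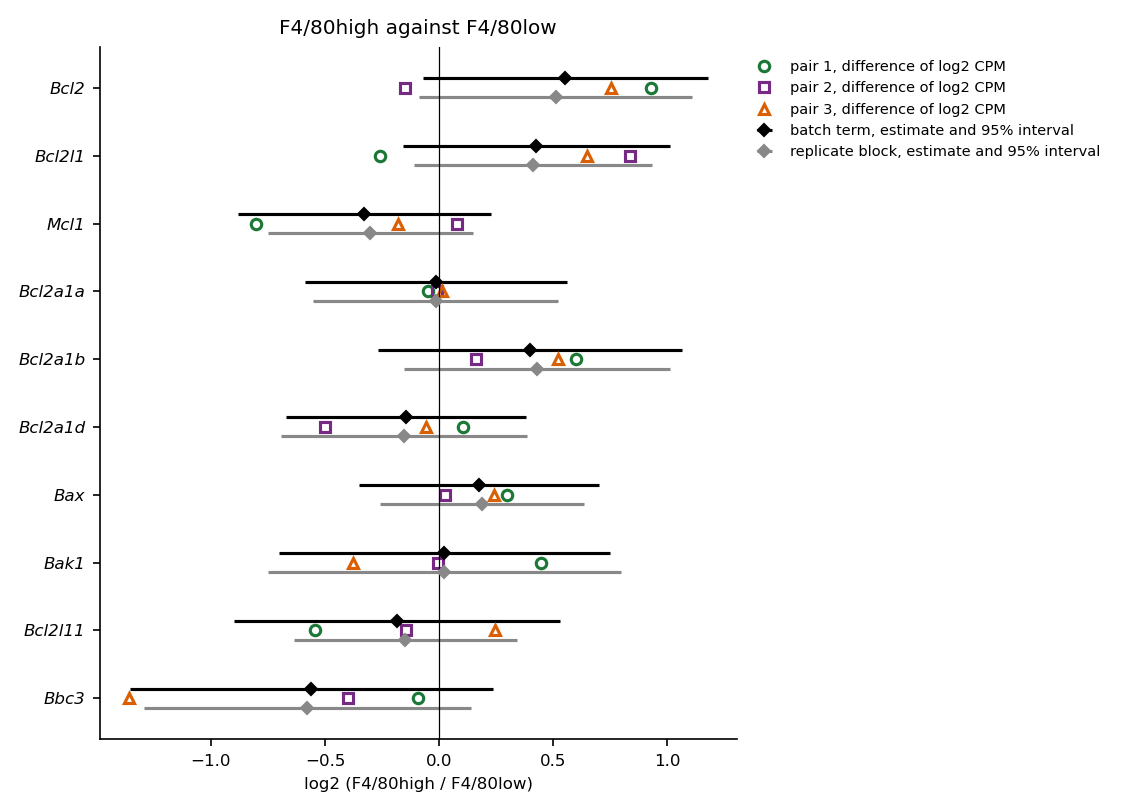
Log2 fold change of F4/80high against F4/80low TAMs for each member, with the 95% interval of the fit with the batch term (black) and with the replicate block (grey), and the difference of log2 CPM in each of the 3 replicate pairs (open symbols). Every interval includes 0, and all 3 open symbols lie on one side of 0 in *Bcl2a1b*, *Bax* and *Bbc3*.

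Levels were compared between genes per length, as CPM per kilobase of the gene length in the tables. In the 4 libraries of replicates 1 and 2 the order of mean levels was *Mcl1* (590.8), *Bax* (124), *Bcl2a1d* (57.4), *Bcl2a1a* (40.6), *Bcl2a1b* (27.0), *Bcl2l1* (25.9), *Bbc3* (13.1), *Bcl2l11* (10.2), *Bcl2* (5.50) and *Bak1* (2.37). The ranges of neighbours in this order overlapped for *Bcl2a1b* and *Bcl2l1*, for *Bbc3* and *Bcl2l11*, and for *Bcl2l11* and *Bcl2*. In the 2 libraries of replicate 3, *Mcl1* (911) and *Bcl2l1* (840, range 654 to 1025) led with overlapping ranges, and *Bbc3* (4.06) was lowest. The length given for *Bax* (869 bases) is shorter than the merged exons of M21 (1576 bases), so its level per length would be lower by that annotation, and those for the *Bcl2a1* copies carry the uncertainty of shared reads.

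*Mcl1* made up most of the survival transcripts in replicates 1 and 2. Of the level per length summed over the 6 survival members it held 75.8% in F4/80high replicate 1, 76.6% in F4/80high replicate 2, 85.5% in F4/80low replicate 1 and 75.5% in F4/80low replicate 2. In replicate 3 its share was 43.4% in F4/80high and 57.0% in F4/80low, and *Bcl2l1* held 52.1% and 38.5%. The ratio of the 6 survival members to *Bcl2l11* and *Bbc3* together, per length, was 24.4, 44.4 and 59.4 in the F4/80high libraries and 30.8, 34.7 and 53.3 in the F4/80low ones. Neither subset had the higher ratio in all pairs. For the pair of *Bcl2* and its BH3-only partner *Bcl2l11*, the ratio was 0.784, 0.640 and 0.271 in the F4/80high libraries and 0.283, 0.642 and 0.191 in the F4/80low ones, a wide gap in pair 1 and almost none in pair 2.

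**Figure D4:**
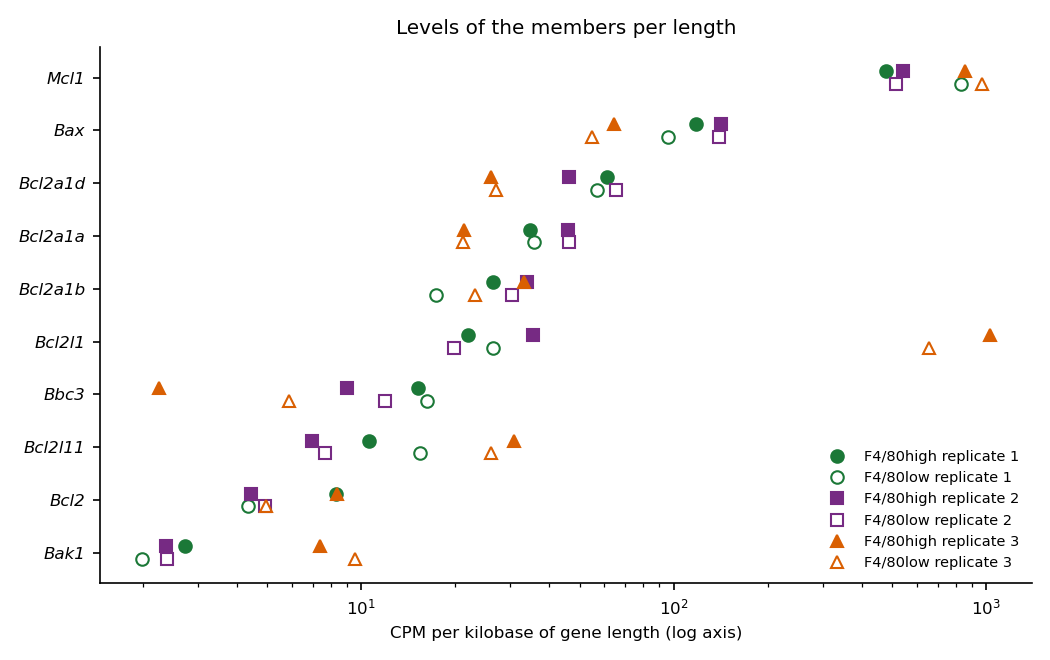
CPM per kilobase of gene length (log axis) of each member in F4/80high (filled) and F4/80low (open) replicates 1, 2 and 3, ordered by the mean of replicates 1 and 2. *Mcl1* leads in replicates 1 and 2, and the 2 replicate 3 libraries carry *Bcl2l1* at 654 and 1025, far above its 19.8 to 35.4 in the others.

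Replicate 3 stood apart from replicates 1 and 2 in both subsets for the members other than *Bcl2* and *Bcl2a1b*. How many of all genes do the same was not counted, so this is not read as particular to the family. Between replicate 3 and replicates 1 and 2, over both subsets and in the same edgeR fit, 6 of the 10 members were called, 3 higher and 3 lower in replicate 3, where 38.0% of all genes were called (17.9% higher and 20.2% lower). The labels do not name a batch, and the batch and the third experiment cannot be told apart. Replicate 3 is 1 experiment, and its 2 libraries are the 2 subsets sorted from it. The SE and p-values of this contrast therefore do not measure the spread between experiments. *Bcl2l1* had the largest change of the members, 31.9-fold higher in replicate 3 (log2 fold change 5.0, SE 0.28, edgeR adjusted p = 2.31e-06), and 247 of 14645 genes had a higher value. It was called under each of the 14 alternatives run for this comparison, at 3.99 to 5.26. In raw counts it stood at 43476 and 26307 in the replicate 3 libraries against 3691 to 8349 in the other 4, although the latter were sequenced deeper.

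Also higher in replicate 3 were *Bak1* (log2 fold change 1.84, SE 0.33, edgeR adjusted p = 0.00194) and *Bcl2l11* (1.51, SE 0.32, edgeR adjusted p = 0.00493). Lower were *Bbc3* (-1.79, SE 0.41, edgeR adjusted p = 0.00682), *Bcl2a1d* (-1.11, SE 0.26, edgeR adjusted p = 0.00761) and *Bax* (-1.06, SE 0.26, edgeR adjusted p = 0.00976). *Bcl2a1a* (-0.93, edgeR adjusted p = 0.0252) stayed under the limit on the fold change, and *Mcl1* (0.64), *Bcl2* (0.25) and *Bcl2a1b* (0.04) were not called either. *Bak1* fell to 0.81 and *Bcl2l11* to 0.48 with library size alone and were then not called, as were *Bcl2a1d* (-0.92) and *Bax* (-0.86) with the RLE factors of DESeq2, so these calls rest on the scaling. *Bcl2*, *Mcl1* and *Bcl2a1b* turned negative with library size alone. The median over all genes was -0.35 with TMM, -0.16 with RLE and -1.37 with library size alone. Relative to the TMM median, *Bcl2l1* stood 5.35 higher, *Bak1* 2.19 higher and *Bbc3* 1.44 lower. Fewer members were called without either replicate 3 library, with *Bcl2l1* among them both times. How many of all genes were called then was not counted, so the drop is not read as particular to the members.

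Gene length moved with this contrast. With the genes in 5 equal classes of length, from the shortest to the longest, the median log2 value of replicate 3 against replicates 1 and 2 was -1.26, -0.87, -0.41, 0.08 and 0.70. *Bcl2a1d* and *Bax* lie in the shortest class and stood 0.14 and 0.20 above its median, and *Bcl2l11* lies in the longest class and stood 0.81 above its own. *Bcl2l1* stood 4.91 above the median of its class, *Bak1* 2.70, *Bcl2a1b* 1.30 and *Mcl1* 1.04, while *Bbc3* stood 0.53 below. The part of length in these values was not tested.

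**Figure D5:**
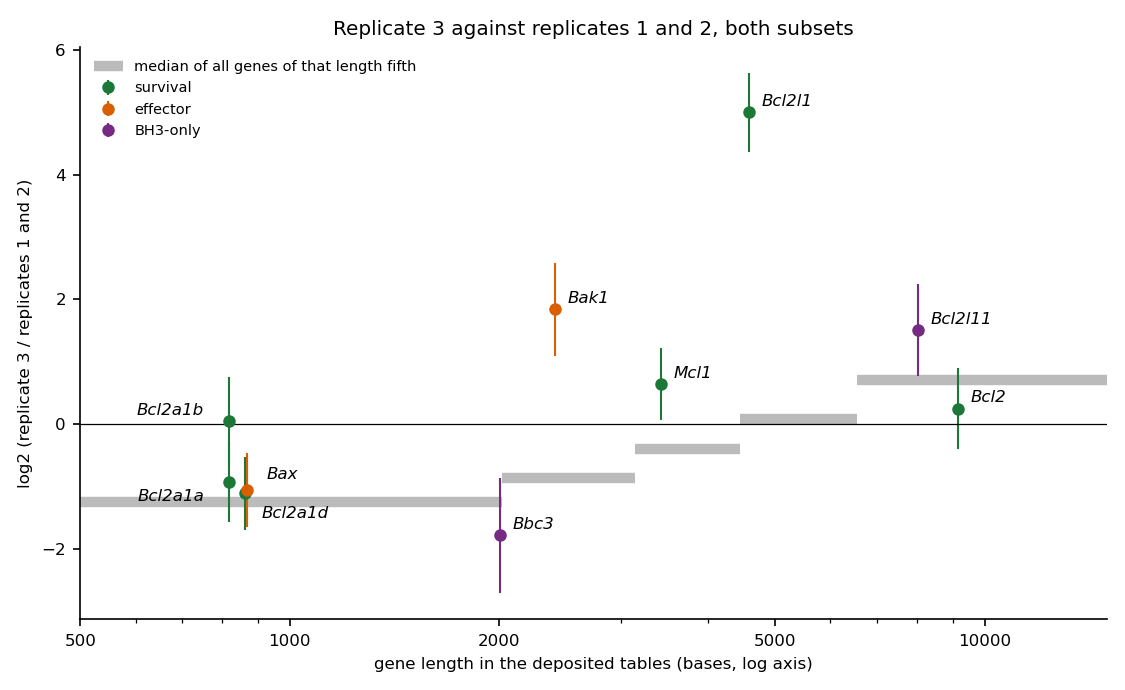
Log2 fold change of replicate 3 against replicates 1 and 2, over both subsets, with 95% intervals, against gene length (bases, log axis) for the members by role, and the median of all genes in each of 5 classes of length (grey bars). *Bcl2l1* at 5.0 and *Bak1* at 1.84 lie far above the grey bars, while *Bcl2a1d* and *Bax* lie close to the bar of their length.

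The other BCL2 family genes gave no call between the subsets either. Of 16 listed, 15 were tested, 5 higher and 10 lower in F4/80high, with 0 called and a median log2 fold change of -0.15. *Pmaip1*, which encodes NOXA, a BH3-only protein that binds MCL1 and A1, measured 197, 84.8 and 149.6 CPM in the F4/80high libraries and 361, 161 and 210.1 CPM in the F4/80low ones. It was lower in F4/80high in 3 of 3 pairs, with overlapping subsets. The fit with the batch term put it at -0.76 (SE 0.38, edgeR adjusted p = 0.694) and the replicate block at -0.76 (SE 0.20, unadjusted p = 0.00355, edgeR adjusted p = 0.162).

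Per length, the ratio of *Mcl1* to *Pmaip1* was 6.39, 16.9 and 15.1 in the F4/80high libraries and 6.09, 8.45 and 12.2 in the F4/80low ones. It was higher in the F4/80high library of each pair, by only 0.07 on the log2 scale in pair 1. The subsets overlapped, and no test was made of it. Of the ratios taken between these genes, only this and that of *Bcl2l1* to *Bcl2l11* went one way in all pairs.

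The BH3-only genes *Bmf*, *Bid* and *Bad* had log2 fold changes of -0.47, -0.15 and 0.08. *Bok*, a relative of the effectors, was at -0.59, the survival gene *Bcl2l2* at -0.01, and *Bcl2l14* at -1.28 on 4 to 544 counts a library. *Bnip3* and *Bnip3l*, mitophagy receptors, were at 0.18 and -0.13, *Bcl2l13* at 0.12 and *Bcl2l12* at 0.03. *Bik*, *Bcl2l15*, *Bcl2l10* and *Bcl2a1c* held at most 31 counts in any library and 0 in at least one. None of these had an unadjusted p under 0.05 in the fit with the batch term. *Bcl2l14* had one with the block (-1.63, unadjusted p = 0.0157, edgeR adjusted p = 0.335), and *Hrk* was not analysed here.

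Over all 6 pathway lists, 85 of 86 genes were tested, 29 higher and 56 lower in F4/80high (7435 and 7210 of all genes), with a median log2 fold change of -0.11 and 0 called. An unadjusted p under 0.05 was reached by 2, *Sesn1* and *Birc3*, where 7.60% of all genes did. Of the caspases, apoptosome genes and inhibitors, 6 were higher and 13 lower. *Birc3*, an inhibitor of apoptosis induced by NF-κB, was lower in F4/80high in 3 of 3 pairs (log2 fold change -0.89, SE 0.29, edgeR adjusted p = 0.525), with *Casp6* at -0.46 and *Apaf1* at -0.52. *Cycs*, which encodes cytochrome c, was at 0.41, *Dffa* at 0.40 and *Parp1* at 0.37.

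Among 14 genes of p53 and its targets, 4 were higher and 10 lower. *Sesn1*, a p53-induced stress gene, was higher in F4/80high in 3 of 3 pairs (log2 fold change 0.86, SE 0.27, edgeR adjusted p = 0.525), at 54.0, 69.6 and 24.8 CPM against 26.7, 43.5 and 12.8 CPM. *Trp53* itself was at 0.27 and *Pidd1* at 0.46, and *Sesn2*, *Cdkn1a* and *Perp* were at -0.57, -0.42 and -1.44. *Perp* rested on 11 to 627 counts a library (SE 0.96), with pair differences of 0.35, -5.6 and -1.9. The p53 targets *Bbc3*, *Cdkn1a* and *Sesn1* thus had log2 fold changes of unlike sign.

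Of 12 death receptor genes 3 were higher and 9 lower, with *Ripk3* (0.54), *Fasl* (0.69) and *Fadd* (0.68) above and *Fas* (-0.83), *Tnfrsf1a* (-0.28) and *Casp8* (-0.30) below. Of 13 membrane partners of BCL2 7 were higher and 6 lower, with *Vdac2* (0.17), *Vdac1* (0.13) and *Vdac3* (0.10) above and *Itpr3* (-0.70), *Itpr1* (-0.53) and *Bag4* (-0.59) below. Of 12 genes that act in the turnover of MCL1 and BIM 4 were higher and 8 lower, with *Btrc* (0.55) and *Dtl* (0.27) above and *Mapk8* (-0.18), *Rps6ka3* (-0.16) and *Usp13* (-1.0) below. *Usp13* rested on 0 to 27 counts a library (SE 1.78), and its pairs went different ways.

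In the fit with the batch term no marker gene of another cell type was called, and neither was any of the 14645 genes tested. With the replicate block, 6 of 12 neutrophil genes and 1 of 8 dendritic cell genes were called, all lower in F4/80high. No gene of the other lists of other cells was called with the block, and 4 of 10 macrophage genes were, against 0.519% of all genes. The part of such cells in the members' values was not tested. Signs given next are those of the fit with the batch term. By the sign of the fitted value, 12 of 12 neutrophil, 9 of 9 eosinophil, 7 of 7 mast cell and basophil and 7 of 8 dendritic cell genes were lower in F4/80high, and 10, 7, 3 and 6 of these were lower in all 3 pairs. The 10 tested T and NK cell genes had fitted values above 0, but 9 of the 10 were lower in F4/80high in pair 2 and 0 went one way in all 3 pairs, as did 0 of the B and plasma cell genes. By the same sign, of 10 macrophage genes 8 were higher, of 7 tested B and plasma cell genes 5, of 3 tested melanoma genes 3, of 7 fibroblast and endothelial genes 1 and of 6 cycling genes 5. The summed eosinophil level was 98.6 to 197 CPM in the F4/80high libraries and 277 to 651 CPM in F4/80low. It was the only list without overlap among those of other cells. Of its genes *Epx* was at 0 to 1.46 CPM, *Prg2* at 8.11 to 121.5, *Siglecf* at 19.6 to 175 and *Ccr3* at 37.1 to 275 CPM. The summed macrophage level was 5801 to 29242 CPM in the F4/80high libraries and 5119 to 12563 CPM in F4/80low.
The remaining sums, F4/80high before F4/80low, were 84.97 to 299 and 149.5 to 529 CPM for dendritic cells, 5.85 to 96.7 and 26.0 to 401 CPM for mast cells and basophils, and 54.2 to 359 and 39.3 to 314 CPM for B and plasma cells. They were 440.4 to 1506 and 994 to 1881 CPM for fibroblasts and endothelium, 213 to 330.4 and 187 to 248 CPM for cycling cells, and 19.6 to 168 and 13.2 to 106 CPM for melanoma, of which *Mitf*, a gene that other cells also express, made up 11.4 to 167 CPM. *Pmel* and *Sox10* were at most 1.82 CPM, *Mlana* held at most 3 counts in each library, and the other 3 melanoma genes were not analysed here.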

How the data were processed

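The authors deposited raw read counts per gene, one table per library, with gene length and biotype. Libraries were made from poly-A RNA, and reads were aligned by the sequencing center. The aligner, counting rule, read length, strand, build and annotation are not given in the sources used here. All columns of per-sample values were used.

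Gene IDs were matched to GENCODE M21 (GRCm38), and 99.4% were found. The 14645 genes that M21 calls protein-coding with at least 10 counts over the 6 libraries were kept. Counts were fitted in R 4.3.3 with edgeR 4.0.16 (TMM factors 0.601 to 1.34, glmQLFit and glmQLFTest) with terms for batch and subset, and DESeq2 1.42.0 was an alternative. Pair differences were taken on log2 CPM (prior count 2). In these libraries 3 counts equal 0.0583 to 0.342 CPM. The fit was tested on simulated data. *Bcl2a1* sequences came from the M21 transcripts.

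Replicates of one number come from one experiment and were taken as pairs. Over 10072 genes, the correlation of their deviations from their subset's mean was 0.745, 0.729 and 0.907. P-values measure the spread between these pools of tumors.

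The members and the gene lists were chosen with earlier results of these data known. Named are the members, the other BCL2 family genes, up to 3 genes of each pathway list that had the lowest p per direction, and *Adgre1*. One gene that this rule names is not reported here. Alternatives were other tools, scalings, filters, gene sets and covariates, summing the *Bcl2a1* copies, and leaving out libraries. DESeq2 with the block was chosen after seeing the data.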

Additional observations from a re-analysis of the deposited data

How the results depend on the processing

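Members called between the subsets stayed at 0 in all 19 alternatives. Members with an unadjusted p under 0.05 ranged from 0 to 2 when libraries were left out in turn. Without F4/80high replicate 1 there were 2 (*Bcl2l1* and *Bbc3*), where 1999 of all 14645 genes reached it. Without F4/80high replicate 2 there was 1 (*Bcl2*), where 1042 of all genes did. The paired fit with the replicate block gave 0 members called and changed no call of a member. For the other apoptosis genes the count at an unadjusted p under 0.05 was 2, and it was 4 with DESeq2, 0 with no batch term, 5 with the replicate block and 8 with DESeq2 and the block. It ranged from 2 to 11 when libraries were left out, with 11 without F4/80high replicate 1, 7 without F4/80low replicate 2 and 4 without F4/80high replicate 2. Over all genes, calls were 0 in the fit with batch, 76 with the replicate block, 148 with DESeq2 and batch, 354 with DESeq2 and the block, and 77 without F4/80high replicate 1. Some directions turned. *Bcl2a1a* was 0.022 with library size alone, 0.0097 with all biotypes and -0.17 to 0.11 with libraries left out. *Bak1* was -0.16 with no batch term and -0.11 to 0.22 with libraries left out, and *Bcl2l11* was -0.40 to 0.21. For replicate 3 against replicates 1 and 2, library size alone gave -0.79 for *Bcl2*, -0.38 for *Mcl1* and -0.98 for *Bcl2a1b*, and all biotypes gave -0.090 for *Bcl2a1b*, which ranged from -0.089 to 0.25 with libraries left out. Members called there reached up to 7 with libraries left out, and were fewest without either replicate 3 library. That leaves replicate 3 with 1 library assumed to vary like the others. The number of all genes called in those fits was not counted. The cause of these changes was not tested. With 3 libraries a subset, the 95% interval ran from 0.390-fold to 1.18-fold for *Bbc3* and from 0.953-fold to 2.26-fold for *Bcl2*. For *Bcl2a1d* it ran from 0.628-fold to 1.30-fold. A change that lies within a member's own interval is not excluded for that member.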
